A study of Mus musculus with 6 samples.

Results

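The genes described here encode the ligands, receptors, Smad proteins, antagonists and Id targets of the BMP, TGF-beta and activin pathway, measured by RNA-seq in differentiated MC3T3-E1 osteoblasts. They were chosen by symbol from a list of 52 genes, of which 50 were matched by Ensembl identifier among the 24016 genes of the table. *Bmp7* and *Bmpr1b* were not analysed here. MC3T3-E1 subclone 4 is a mouse preosteoblast line grown from 1 clone, which the labels call wild type and place under bone, and which forms a mineralizing matrix when given ascorbic acid and a phosphate source. The cells were differentiated in 12-well plates for 6 days, with ascorbic acid at 50 µg/ml and β-glycerophosphate at 10 mM, and then kept for 24 h with vehicle (n = 3) or with 100 nM corticosterone (n = 3), the main glucocorticoid of mice. A treatment text shared by all 6 libraries adds 10 nM calcitriol, and the labels give passages 4 to 10 in one field and 6 to 12 in another. The methods call the cultures biological replicates. The comparison asked how corticosterone changed the expression of the pathway.

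TGF-beta, activins and BMPs are secreted dimers of 1 protein family. They join type II and type I receptor kinases, which phosphorylate receptor-activated Smads. Smad2 and Smad3 carry TGF-beta and activin signals, while Smad1, Smad5 and Smad9 carry BMP signals, and both sets enter the nucleus with Smad4. In bone, TGF-beta is stored in the matrix in a latent form, BMPs drive osteoblast differentiation, and secreted antagonists such as noggin and gremlin hold BMPs away from their receptors. The *Id* genes, which encode inhibitors of basic helix-loop-helix transcription factors, are well known direct targets of BMP Smads.

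Sequences upstream of the RefSeq starts of *Id2*, *Id3* and *Id4* are shown because these genes are read as targets of the pathway and changed in opposite directions. They come from the RefSeq promoters of GRCm38.p6, which run from 250 bases before to 50 bases after a gene's start and were found for 36 of the 50 genes. The *Id2* and *Id4* stretches lie outside the exons of the GENCODE annotation. For *Id3*, whose window lies inside an annotated first exon, 30 bases around each motif are given. Capitals mark GGCGCC, a GC-rich element bound by BMP Smads, and CAGAC, the Smad box, on either strand (GTCTG on the other). AGAACA, a motif of the glucocorticoid receptor, was searched too, and none of the 3 windows held it. The motifs did not overlap each other. The *Id2* stretch is chr12:25096254-25096342 on the minus strand, with its motif 231 bases before the RefSeq start. It lies inside the annotated gene, in an intron of a longer transcript whose start is at 25097140, so that the motif is 817 bases after the GENCODE start. The *Id3* stretches are chr4:136143642-136143671 and chr4:136143741-136143770 on the plus strand, with motifs 167 and 68 bases before the RefSeq start. The *Id4* stretch is chr13:48260866-48261115 on the plus strand, with its motif 148 bases before the RefSeq start and 260 before the GENCODE start at 48261228.
Id2: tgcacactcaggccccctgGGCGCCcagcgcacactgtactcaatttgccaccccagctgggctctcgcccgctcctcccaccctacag
Id3 (distal): ctgtcctcggcgtCAGACcagcctaaggaa
Id3 (proximal): tggacccttggcgGTCTGttttgaataagg
Id4: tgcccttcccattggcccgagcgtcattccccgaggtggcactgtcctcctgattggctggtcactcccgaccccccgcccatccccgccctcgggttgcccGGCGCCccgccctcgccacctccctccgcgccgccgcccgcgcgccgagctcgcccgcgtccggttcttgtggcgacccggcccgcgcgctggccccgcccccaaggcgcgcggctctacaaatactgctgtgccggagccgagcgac

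Of the 27025 genes with a RefSeq promoter of this length, 13.4% held GGCGCC, 53.2% CAGAC and 21.3% AGAACA in at least 1 promoter. Among the pathway genes with a promoter, GGCGCC stood in 3 of 12 that were higher with corticosterone, 5 of 10 that were lower and 6 of 14 that passed in neither direction. The counts were 7, 7 and 7 for CAGAC, and 2, 1 and 2 for AGAACA, in the same order. A match describes these letters only, and binding was not measured.

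Expression is given as the normalized count, the reads on a gene divided by 1 size factor per library. Between 16020401 and 25638645 reads per library fell on genes, and 3 reads, the floor used here, equalled a normalized count of 2.32 to 3.84. Vehicle and corticosterone libraries lay apart on the first principal component (62.0% of the variance). The glucocorticoid targets *Tsc22d3*, *Fkbp5*, *Per1* and *Sgk1* were higher with corticosterone, by 1.49 to 2.75 on the log2 scale. Of 9 osteoblast markers, all were detected, 8 were lower and *Spp1* was higher with corticosterone. The corticosterone mean was 27.4% to 90.1% of the vehicle mean in the 8 lower markers and 118% for *Spp1*. Their summed count ranged from 1485480.4 to 1536592 with vehicle and from 1286792 to 1345572 with corticosterone. *Col1a1* had the highest mean of the 9 (673997), so this sum says little of markers with lower counts. Of 5 adipocyte markers, the 2 in the table, *Fabp4* and *Plin1*, summed to 7.72 to 21.1 with vehicle and 108 to 133 with corticosterone, with *Plin1* at 0 in 5 of 6 libraries. In the chondrocyte list, *Col2a1* (log2 fold change -0.80) and *Sox9* (-0.16) were lower and *Col10a1* (0.72) was higher with corticosterone. Its 4 markers in the table, with *Matn1* at 0 to 2 reads per library, summed to 3543 to 3956 and 2987 to 3017. The 3 macrophage markers summed to 125 to 151 and 127 to 145, the 3 endothelial markers to 0 to 13.0 and 2.21 to 14.1, and the 3 muscle markers to 8.49 to 17.8 and 18.8 to 23.0. The part of these cell-state markers in the pathway results was not tested. In bulk RNA, fewer cells of a kind and less RNA per cell cannot be told apart.

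Corticosterone changed 31 of the 50 genes in both directions. With limma on log2(normalized count + 1) and Benjamini-Hochberg adjustment over all genes, 18 were higher and 13 lower at an adjusted p under 0.05, against 8.95% of all genes higher and 8.64% lower. The 50 genes were chosen with earlier results of these data known, so the comparisons with all genes describe the list and do not test the pathway. Most of the pathway genes were well expressed, so the same counts are given for genes with like levels. Of the 44 genes with a mean normalized count of at least 10, 18 were higher and 12 lower, against 14.8% and 14.1% of all such genes. Of the 41 with a mean of at least 100, 17 were higher and 12 lower, against 17.8% and 16.3%. The values of the treatments did not overlap for 34 of the 50 genes, against 29.6% of all genes. Among genes with a mean of at least 10 they did not overlap for 33 of 44, against 43.8%, and with a mean of at least 100 for 31 of 41, against 49%. For a single gene, an exact permutation test of 3 against 3 cannot go below p = 0.1. In genes with a mean of at least 10, the median absolute log2 fold change was 0.37 in the pathway and 0.16 over all genes, while the signed medians were 0.01 and -0.01. At the study's threshold, which adds an absolute log2 fold change over 1, *Gdf6*, *Fstl3*, *Skil* and *Id2* were higher, against 1.47% of all genes, and *Gdf15* and *Nog* were lower, against 1.51%. The count of lower genes was 8, 5, 8 and 8 without vehicle 2, vehicle 3, corticosterone 1 or corticosterone 2, and without vehicle 2 or vehicle 3 none was lower past the threshold.

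**Figure D1:**
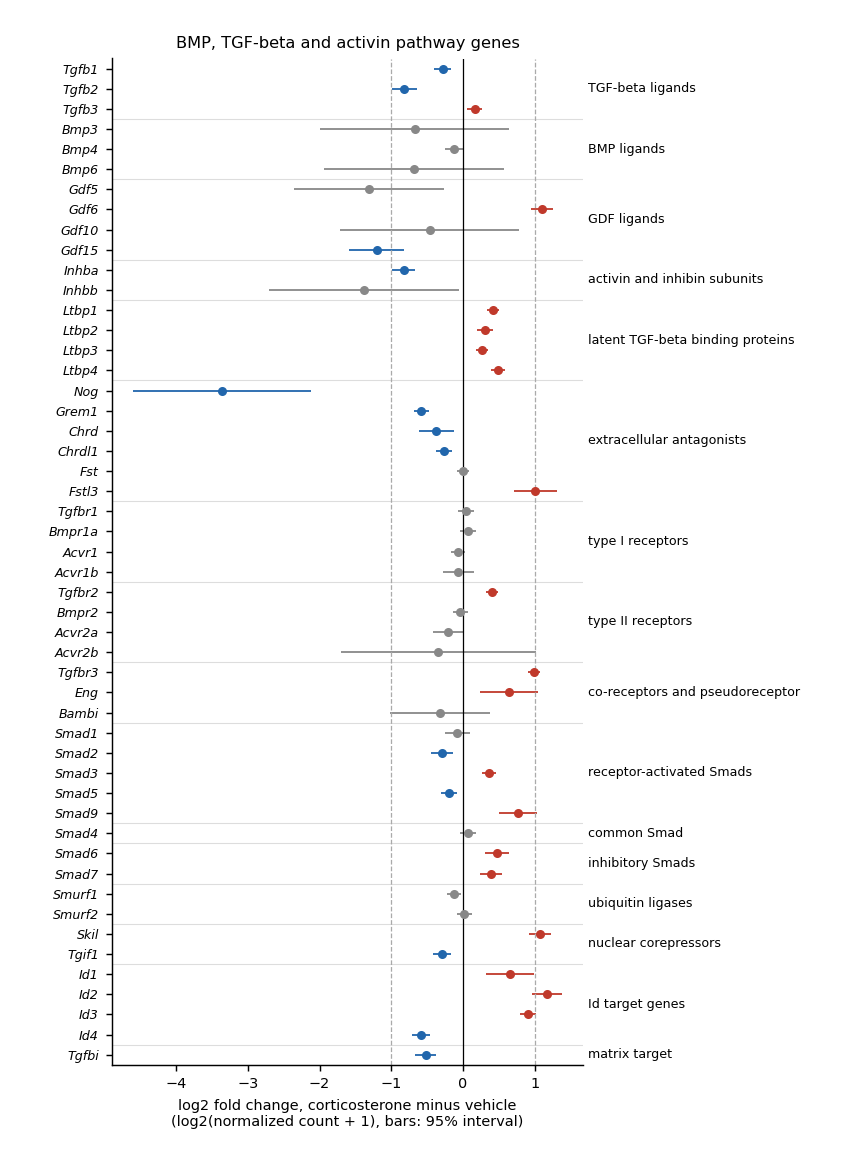
Log2 fold change (x axis, corticosterone minus vehicle, on log2(normalized count + 1)) of the 50 pathway genes, ordered by role, with 95% limma intervals as bars, red for higher, blue for lower and grey for an adjusted p of 0.05 or more. The 4 latent TGF-beta binding proteins lie right of 0, the 4 type I receptors lie on it, and *Nog* has the lowest point, from few reads.

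**Figure D2:**
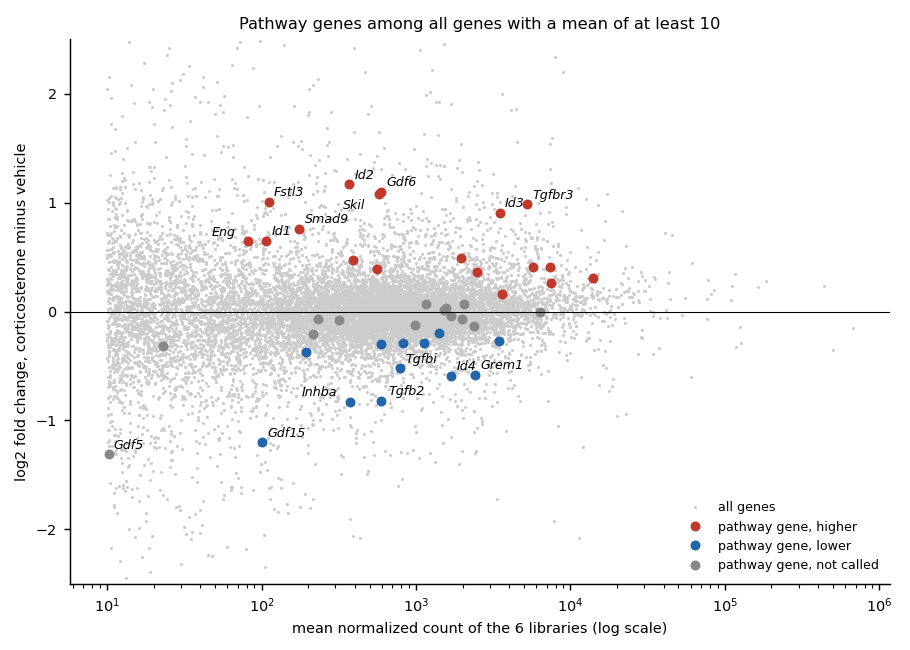
Mean normalized count of the 6 libraries (x axis, log scale) against the log2 fold change (y axis) for genes whose mean was at least 10, with 44 pathway genes in color and the other genes in light grey, and 60 genes beyond ±2.5 not shown. Pathway genes past 0.5 in either direction are named, and *Gdf6*, *Skil*, *Id2* and *Fstl3* lie above 1.

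The TGF-beta ligands shifted towards *Tgfb3*. *Tgfb2*, the isoform that depends on betaglycan for tight receptor binding, had normalized counts of 648, 852 and 774 with vehicle and 461, 427 and 391 with corticosterone. The groups did not overlap, and the corticosterone mean was 56.3% of the vehicle mean (log2 fold change -0.82 ± 0.09 SE, adjusted p = 2.76e-08). *Tgfb1*, the isoform most abundant in bone matrix, was 1129.6, 1311 and 1252 with vehicle and 1004, 989.6 and 1029 with corticosterone, lower by a smaller step (-0.29 ± 0.06, adjusted p = 0.000758). *Tgfb3* was 3199, 3694 and 3368 against 3976, 3603 and 3895, so that the groups overlapped, and its rise was small (0.16 ± 0.05, adjusted p = 0.0269). Per kilobase of exon, *Tgfb3* made up 73.0 ± 0.763% of the 3 ligands' reads with vehicle and 80.5 ± 0.637% with corticosterone (SD, n = 3), *Tgfb1* 17.6 ± 0.357% and 14.2 ± 0.509%, and *Tgfb2* 9.42 ± 0.596% and 5.25 ± 0.436%. None of these shares overlapped between the treatments. *Tgfb3* shares 12.4% of its exon bases with antisense genes, and its call was lost without any 1 library (adjusted p = 0.0741 to 0.366), while that of *Tgfb1* was lost without vehicle 2, vehicle 3, corticosterone 1 or corticosterone 2 (0.0583, 0.087, 0.0745 and 0.0802).

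**Figure D3:**
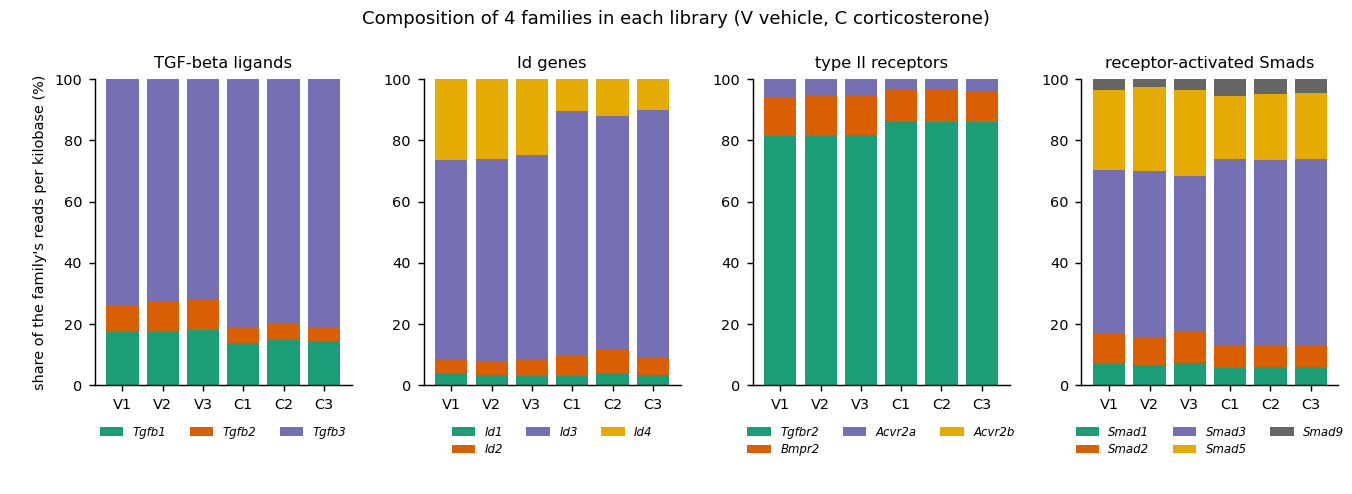
Share of each gene in its family's reads per kilobase of exon (y axis, percent) in each library (x axis, V1 to V3 vehicle and C1 to C3 corticosterone) for 4 families. The bands of *Tgfb3*, *Id3*, *Tgfbr2* and *Smad3* were wider, and those of *Tgfb2*, *Id4*, *Bmpr2* and *Smad5* narrower, in the 3 corticosterone libraries.

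Among the BMP and GDF ligands, *Gdf6* rose and *Gdf15* fell, while the BMP genes did not pass the test. *Gdf6*, a BMP-like factor of joint and skull development on chromosome 4, 9844372 to 9862345 of GRCm38, had normalized counts of 363, 359 and 405 with vehicle and 859.7, 761 and 801 with corticosterone. All corticosterone libraries were above all vehicle libraries, and the mean was 2.15-fold higher (log2 fold change 1.10 ± 0.07, adjusted p = 5.78e-12). *Gdf15*, a stress-induced and divergent family member that signals to the brain, was 108, 174 and 139.6 against 66.4, 66.3 and 47.3, again with no overlap (-1.20 ± 0.19, adjusted p = 1.76e-05). Its call was lost without vehicle 2 or vehicle 3 (adjusted p = 0.0533 and 0.0592). *Bmp4*, the most abundant of the 3 BMP ligands measured, was 1089.8, 944 and 1049 with vehicle and 880.1, 932 and 1016 with corticosterone. These ranges overlapped, and the 95% interval of the log2 fold change was -0.26 to 0.01 (adjusted p = 0.235). *Gdf5*, a joint-forming relative of *Gdf6*, was 10.5, 18.5 and 14.5 against 5.35, 2.21 and 10.2, which did not overlap but did not pass (-1.31, 95% interval -2.36 to -0.26, adjusted p = 0.0822) other than with a robust prior variance (0.0297), and 40.3% of its exon bases are shared with the antisense gene *Gm15557*. *Bmp3*, which opposes other BMPs in bone, had 4 reads in vehicle 2 and 0 in the other libraries. *Bmp6* had 4 reads in all with vehicle and 1 with corticosterone, and *Gdf10* had 2 and 0, so that no difference was detectable at this depth.

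The activin subunit *Inhba* fell. *Inhba*, whose dimer is activin A, had normalized counts of 508, 463 and 475 with vehicle and 272, 268 and 271 with corticosterone. The treated libraries lay within a few counts of each other and below all vehicle libraries, at 56.1% of the vehicle mean (log2 fold change -0.83 ± 0.08, adjusted p = 8.49e-09). *Inhbb*, the subunit of activin B, was at 4.05, 6.17 and 5.17 with vehicle and 1.07, 0 and 5.12 with corticosterone, from 18 and 5 reads in all. The overlapping groups gave a read ratio of 0.370, with a 95% exact counting interval of 0.108 to 1.04 that covers counting error only, and the adjusted p was 0.166.

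The 4 latent TGF-beta binding proteins were all higher, against 17.8% of all genes with a mean of at least 100. They are matrix proteins that, apart from *Ltbp2*, hold latent TGF-beta. *Ltbp4* was 1551, 1700.3 and 1643 with vehicle and 2279, 2344 and 2243 with corticosterone, and *Ltbp1* 6518, 6339 and 6207 and 8429, 8328 and 8612. These were the larger steps of the group, at 0.49 ± 0.05 (adjusted p = 2.02e-08) and 0.41 ± 0.04 (adjusted p = 8.57e-09). *Ltbp3* was 6763, 6858 and 6768 against 7902, 8165 and 8333 (0.26, adjusted p = 1.67e-05). *Ltbp2*, among the most abundant pathway genes per length with vehicle, was 13901, 11445 and 12124 against 15221, 14674 and 16424 (0.31, adjusted p = 8.59e-05). None of the 4 overlapped between treatments, which held for 49% of all genes with a mean of at least 100. The call of *Ltbp2* was lost without each library other than vehicle 1 (adjusted p = 0.0838 to 0.148), and that of *Ltbp3* only with no variance trend among the settings tried (0.0748).

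The 4 secreted BMP antagonists of the list were lower, whereas the activin antagonist *Fstl3* was higher. *Nog* encodes noggin, which blocks BMP contact with both receptor types, and lies on chromosome 11, 89300638 to 89302332. It had 12, 18 and 20 reads with vehicle and 0, 2 and 0 with corticosterone, or normalized counts of 9.73, 13.9 and 20.7 and 0, 2.21 and 0. After scaling for depth the ratio of reads was 0.0533, with a 95% exact counting interval of 0.00629 to 0.203 that covers counting error only. Limma gave *Nog* an adjusted p of 0.000134. Its call was lost without vehicle 2 or vehicle 3 (adjusted p = 0.0534 and 0.0509).

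*Grem1*, which encodes the BMP antagonist gremlin, was far more abundant. Its normalized counts were 2901, 2742 and 2998 with vehicle and 2037, 1964 and 1777 with corticosterone, and the groups did not overlap (66.9% of vehicle, log2 fold change -0.58 ± 0.05, adjusted p = 2.57e-09). *Chrd*, which encodes chordin, was 196, 252 and 208 against 164, 177 and 164 (-0.37, adjusted p = 0.0241). *Chrdl1*, a chordin-like antagonist, was 4189.8, 3450.0 and 3658 against 3034, 3140.0 and 3162 (-0.27, adjusted p = 0.000497). Both fell by less than *Grem1* and showed no overlap. Among all genes with a mean of at least 100, 49% showed none. The call of *Chrd* was lost without any 1 library (adjusted p = 0.0705 to 0.181) and in DESeq2 (0.0617), and that of *Chrdl1* without vehicle 3 or any corticosterone library (0.0959 to 0.146).

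*Fst* and *Fstl3* encode follistatin and a close relative, both of which bind activins. *Fst* was 6632, 6343 and 6197 with vehicle and 6378, 6415 and 6292 with corticosterone. These values overlapped, with a log2 fold change of -0.01 and a narrow interval of -0.09 to 0.08. *Fstl3*, on chromosome 10, 79777272 to 79782630, was 77.8, 71.8 and 70.3 against 158, 139 and 148, 2.03-fold higher without overlap (1.01 ± 0.15, adjusted p = 7.63e-06). Its log2 fold change ran from 0.96 to 1.06 over the alternatives, on both sides of 1. Of its exon bases, 47.3% are shared with the antisense gene *Prss57*, and whether counting used strand is not given in the sources used here. With *Fst* level and *Inhba* lower, the ratio of *Fst* to *Inhba* reads per kilobase was 18.5 ± 0.521 with vehicle and 32.7 ± 0.496 with corticosterone (SD, n = 3), a pair chosen after its values were seen.

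Of the 8 type I and type II receptors, *Tgfbr2* alone passed. Of all genes whose mean count reached 100, as it did for each receptor but *Acvr2b*, 17.8% were higher and 16.3% lower. A count of 1 in 8 therefore does not set the receptors apart from other genes. *Tgfbr2* encodes the receptor that binds TGF-beta first, and its normalized counts were 4894, 4967 and 4910.1 with vehicle and 6561, 6599 and 6441 with corticosterone. The groups lay well apart relative to their spread (0.41 ± 0.04, adjusted p = 1.02e-08). Its partner *Tgfbr1* was 1517, 1601 and 1483 against 1647, 1614 and 1464, with a log2 fold change of 0.04 and an interval of -0.08 to 0.15. The BMP receptors *Bmpr1a*, *Acvr1* and *Bmpr2* had log2 fold changes of 0.07, -0.07 and -0.04, with intervals of -0.04 to 0.18, -0.17 to 0.03 and -0.14 to 0.06. Those of the activin receptors *Acvr1b* and *Acvr2a* were -0.07 (-0.28 to 0.15) and -0.21 (-0.42 to 0.01), and *Acvr2b* had 8 reads with vehicle and 5 with corticosterone. *Acvr2a* shares 7.84% of its exon bases with *Orc4*. As a share of the type II receptors' reads per kilobase, *Tgfbr2* went from 81.5 ± 0.200% to 86.1 ± 0.238%, while *Bmpr2* went from 12.9 ± 0.118% to 10.0 ± 0.220% and *Acvr2a* from 5.53 ± 0.290% to 3.82 ± 0.348%.

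*Tgfbr3* encodes betaglycan, a co-receptor that presents TGF-beta ligands and also binds inhibin. It lies on chromosome 5, 107106570 to 107289629. Its normalized counts were 3581, 3438 and 3477 with vehicle and 6804, 7085 and 6929.9 with corticosterone, 1.98-fold higher, and its adjusted p was the lowest of the pathway genes (0.99 ± 0.04, adjusted p = 5.10e-16). Its reads per kilobase were 0.889 ± 0.0249 times those of *Tgfbr2* with vehicle and 1.33 ± 0.0273 times with corticosterone (SD, n = 3), a pair chosen after its values were seen. *Eng*, which encodes the co-receptor endoglin, was 51.1, 67.9 and 70.3 against 121, 106 and 74.2. The 2 ranges came close, and the rise of 0.65 ± 0.20 (adjusted p = 0.0206) was not called without any 1 library other than corticosterone 3 (adjusted p = 0.172 to 0.287). *Bambi*, a decoy receptor without a kinase domain, was 25.1, 27.0 and 23.8 against 27.8, 13.3 and 21.7, with overlap and a wide interval (-0.32, -1.02 to 0.38).

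**Figure D4:**
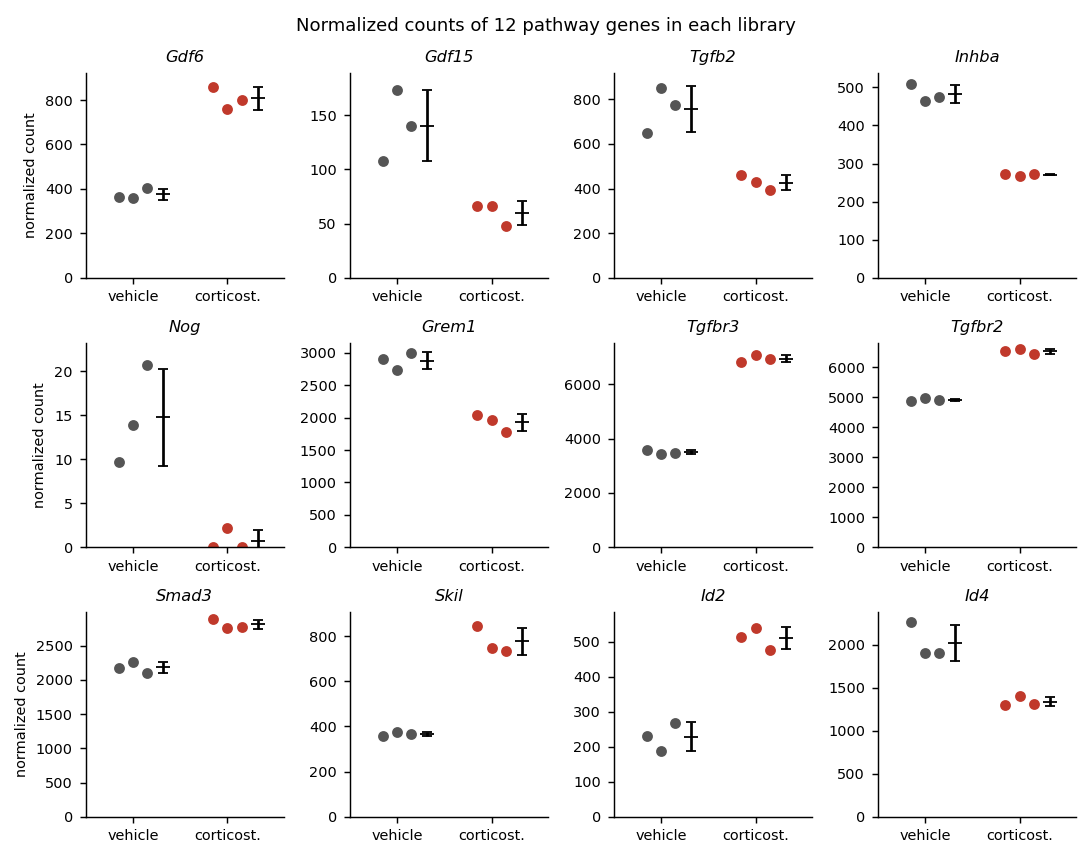
Normalized counts (y axis, from 0, linear) of 12 pathway genes in each vehicle (grey) and corticosterone (red) library, with the mean ± SD of each treatment beside the points. In each panel the 3 corticosterone libraries lie on 1 side of the 3 vehicle libraries, above them for *Gdf6*, *Tgfbr3*, *Tgfbr2*, *Smad3*, *Skil* and *Id2*, and below them for the others. All 12 are among the 34 of the 50 genes whose treatments did not overlap, so the panels do not represent the list. Over all genes, 29.6% did not overlap, and 49% of those with a mean of at least 100.

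The receptor-activated Smads split within both branches. *Smad3* was 2176, 2267 and 2103 with vehicle and 2893, 2759 and 2779.9 with corticosterone, while *Smad2* was 655, 599 and 696 and 567, 526 and 491. Both carry TGF-beta and activin signals, yet one rose (0.37 ± 0.05, adjusted p = 1.09e-06) and the other fell (-0.30 ± 0.07, adjusted p = 0.00421). Of the BMP Smads, *Smad9* was 137, 110.4 and 144 against 253, 209.8 and 201 and rose (0.76 ± 0.13, adjusted p = 6.10e-05). *Smad5* was 1443, 1529 and 1576 against 1313, 1323 and 1323 and fell (-0.20, adjusted p = 0.00699). *Smad1* was 318, 318 and 348 against 313, 311 and 306, which did not overlap but did not pass (-0.08, -0.25 to 0.10, adjusted p = 0.639). *Smad4*, the partner they share, was 1199, 1119 and 1091 against 1216, 1156 and 1208, with overlap (0.07, -0.04 to 0.19). By share of reads per kilobase, *Smad3* went from 52.6 ± 1.99% to 60.7 ± 0.332% of the 5 genes, *Smad5* from 27.3 ± 0.919% to 21.3 ± 0.633% and *Smad9* from 3.25 ± 0.454% to 4.92 ± 0.485%. The call of *Smad2* was lost without each library other than vehicle 2 (adjusted p = 0.0544 to 0.142) and that of *Smad5* without each library other than vehicle 1 (0.0594 to 0.0749).

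Inhibitors inside the cell rose in 3 of 6 cases, and *Tgif1* fell. Over all genes with a mean of at least 100, 17.8% were higher and 16.3% lower. *Smad6* and *Smad7*, the inhibitory Smads that are themselves induced by the pathway, both rose. *Smad6* was 325, 326 and 324 with vehicle and 427, 436 and 494 with corticosterone (0.47 ± 0.08, adjusted p = 7.68e-05). *Smad7* was 489, 489 and 474 against 683, 574 and 655 (0.39 ± 0.07, adjusted p = 0.000212). Neither overlapped, and the call of *Smad7* was lost without vehicle 2 or vehicle 3 (adjusted p = 0.0526 and 0.0564). *Skil* encodes SnoN, a Smad corepressor that the pathway induces, on chromosome 3, 31095058 to 31122577. It was 358, 377 and 367 against 847, 749 and 736, 2.12-fold higher (1.08 ± 0.07, adjusted p = 7.55e-12). *Tgif1*, a homeobox corepressor of Smads, was 841, 925 and 936 against 737, 736 and 733 and fell without overlap (-0.29 ± 0.06, adjusted p = 0.000938).

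The ubiquitin ligases *Smurf1* and *Smurf2*, which mark Smads and receptors for destruction, did not pass. *Smurf1* was 2442, 2532 and 2455 with vehicle and 2202, 2318 and 2266 with corticosterone, just above the threshold (-0.13, -0.23 to -0.04, adjusted p = 0.0516) though the groups did not overlap. It was called in 11 of 21 alternatives, edgeR (0.0317) and DESeq2 (0.0469) among them. *Smurf2* was 1482, 1531 and 1540.2 against 1545, 1511 and 1549, with a log2 fold change of 0.02 and an interval of -0.09 to 0.12.

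The *Id* target genes rose apart from *Id4*. *Id3*, the most abundant of them, was 2592, 2259.9 and 2393 with vehicle and 4595, 4146 and 4846 with corticosterone, 1.88-fold higher (0.91 ± 0.06, adjusted p = 9.36e-13). *Id2*, on chromosome 12, 25093799 to 25097140, was 229, 188 and 269 against 513, 540.1 and 477 and had the largest fitted rise among the pathway genes, 2.23-fold (1.17 ± 0.10, adjusted p = 1.37e-09). *Id1* was 102, 74.9 and 72.4 against 115, 142 and 133, a rise from fewer reads (0.65 ± 0.16, adjusted p = 0.00455). *Id4*, which differs from the others in that it can favour osteoblast differentiation, was 2258, 1899 and 1902 against 1299, 1404 and 1314 and fell (-0.59 ± 0.06, adjusted p = 2.24e-08). In none of the 4 did the treatments overlap. Among all genes with a mean of at least 100, 49% did not overlap, 17.8% were higher and 16.3% lower. As a share of the family's reads per kilobase, *Id3* went from 66.2 ± 0.763% to 79.0 ± 2.15%, *Id2* from 4.60 ± 0.788% to 6.57 ± 0.748% and *Id4* from 25.7 ± 0.937% to 10.9 ± 1.01% (SD, n = 3). The share of *Id1* was 3.50 ± 0.437% and 3.52 ± 0.501%, with overlap. *Id3* had 2.58 ± 0.12 times the reads per kilobase of *Id4* with vehicle and 7.29 ± 0.834 times with corticosterone, a pair chosen after its values were seen. The call of *Id1* was lost without each library other than vehicle 1 (adjusted p = 0.0699 to 0.146).

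*Tgfbi*, a collagen-binding matrix protein named for its induction by TGF-beta, fell. Its normalized counts were 933, 902 and 959.9 with vehicle and 565, 669 and 718 with corticosterone, with no overlap (69.9% of vehicle, -0.52 ± 0.07, adjusted p = 3.67e-06). Without vehicle 3 its adjusted p was 0.0507.

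Per length, the most abundant pathway genes with vehicle were *Ltbp2*, *Fst*, *Id3* and *Tgfb3*, at 77.3 ± 7.93, 70.5 ± 2.46, 68.3 ± 4.81 and 51.2 ± 3.69 RPKM (reads per kilobase of exon, scaled to the reads on genes in each library) (SD, n = 3). *Ltbp2*, *Fst* and *Id3* did not stand apart by more than their summed spread. With corticosterone the order was *Id3* (124 ± 8.76), *Ltbp2* (92.8 ± 4.64), *Fst* (68.2 ± 1.22) and *Tgfb3* (55.6 ± 2.55), while *Tgfbr3* moved from rank 10 to rank 5 at 52.2 ± 1.35 RPKM. *Grem1* moved from rank 6 to rank 10. *Bmp6*, *Bmp3* and *Gdf10* were the 3 lowest with either treatment.

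A further 104 genes of the pathway, none of them among the 50, were listed with earlier results of these data known, and 89 were in the table. Of these, 16 were higher, 24 lower and 49 passed in neither direction, against 8.95% of all genes higher and 8.64% lower. Of the 73 with a mean of at least 10, 15 were higher and 22 lower, against 14.8% and 14.1%. The target gene *Ccn2* and the regulator *Pmepa1* rose past the threshold. *Ccn2*, which encodes connective tissue growth factor, was 969, 1057 and 962 with vehicle and 2977, 2924 and 2811 with corticosterone (1.54 ± 0.05, adjusted p = 5.50e-18), and 23.2% of its exon bases are shared with the antisense gene *Gm15270*. *Pmepa1*, a negative regulator of Smad signalling, was 1581, 1489 and 1438 against 3519, 3451 and 3348 (1.20 ± 0.05, adjusted p = 2.72e-16). Of 16 target genes in all, 7 were higher and 5 lower, with *Snai1*, a repressor of epithelial genes, at 0.63 on the log2 scale (adjusted p = 8.72e-09). Of 23 intracellular regulators, 3 were higher and 5 lower.

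Of 9 further matrix and latency genes, 0 were higher and 6 lower, against 8.95% of all genes higher and 8.64% lower. Among all genes with a mean of at least 100 these shares were 17.8% and 16.3%. *Fmod* (fibromodulin) was 24189, 27471 and 27236 with vehicle and 13339, 12998 and 14295 with corticosterone, and *Dcn* (decorin) 8306, 9758 and 9533 and 5073, 5378 and 5118. Both encode small leucine-rich proteoglycans that bind TGF-beta, and fell to 51.5% and 56.4% of vehicle (adjusted p = 1.38e-14 and 8.43e-13). *Bgn* (biglycan), a proteoglycan of the same class named after its values were seen, was 54601, 52032 and 53752 against 51749, 50873 and 54116, with overlap (-0.03, -0.12 to 0.05, adjusted p = 0.681). *Emilin1*, *Fbn1* and *Pcolce*, an enhancer of procollagen processing, fell by less than *Fmod* and *Dcn*, at -0.37, -0.36 and -0.34. *Fbn1* encodes fibrillin, the fibre to which the latent TGF-beta binding proteins attach, and 20.1% of its exon bases are shared with *Gm9913*. Among 11 proteases and activators, 3 were higher and 1 lower. *Thbs1*, which can activate latent TGF-beta, was 1 of the higher (0.59, adjusted p = 7.24e-10).

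Of 10 further ligands, 0 were higher and 1 lower, against 8.95% of all genes higher and 8.64% lower. *Gdf11*, an activin-like ligand, was 809, 972 and 887 with vehicle and 486, 498 and 459 with corticosterone (-0.88, adjusted p = 2.64e-10). Of 13 further antagonists, 3 were higher and 4 lower. *Nbl1*, a BMP antagonist of the gremlin kind, was 1107, 1405 and 1195 against 2236, 2244 and 2213 and rose (0.86, adjusted p = 4.02e-11), as did *Crim1*, a membrane protein that binds BMPs (0.47, adjusted p = 4.88e-08). Both went against the direction of *Nog*, *Grem1*, *Chrd* and *Chrdl1*. Of 7 receptors and co-receptors, 0 were higher and 2 lower.

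Among the further genes past the threshold, 3 rested on few reads. *Itgb6*, a subunit of an integrin that activates TGF-beta, had 6, 1 and 0 reads with vehicle and 8, 7 and 5 with corticosterone. Its call (adjusted p = 0.0302) was lost without each library other than vehicle 1 (0.183 to 0.279). *Acvrl1*, a type I receptor best known in endothelium, had 6, 1 and 3 reads with vehicle and 0 in each corticosterone library (adjusted p = 0.0431). That call was lost without each library other than vehicle 2 (0.12 to 0.154). *Chrdl2*, a chordin-like antagonist, had 3, 5 and 2 reads with vehicle and 0 in each corticosterone library (adjusted p = 0.0241), and was not called in the genes with a mean of at least 1 (0.064) or with reads thinned to equal depth (0.308).

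**Figure D5:**
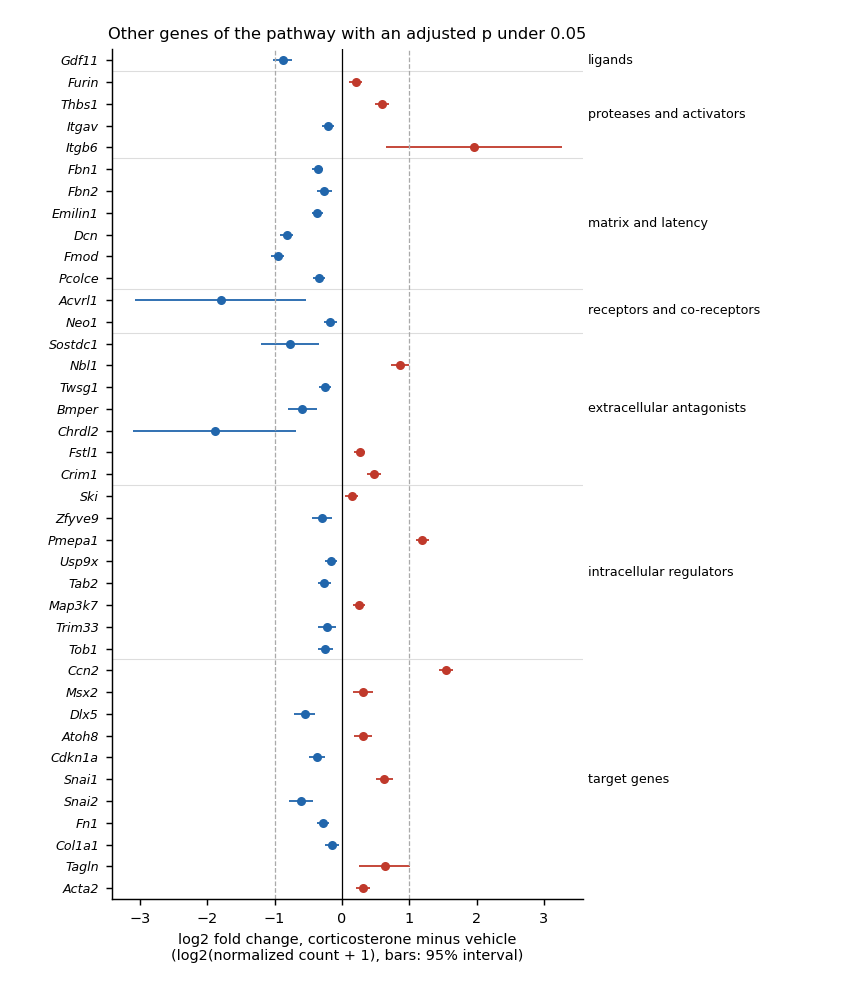
Log2 fold change (x axis, corticosterone minus vehicle, on log2(normalized count + 1)) of 39 of the 40 further pathway genes with an adjusted p under 0.05, ordered by role, with 95% limma intervals as bars, red for higher and blue for lower. *Ccn2* and *Pmepa1* lie right of 1 with short bars, the 6 matrix and latency genes lie left of 0, and the points of *Acvrl1* and *Chrdl2*, with no read in the corticosterone libraries, depend on the pseudocount.

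Of the 31 pathway genes called, 15 were called under each alternative that gave a value. These were *Gdf6*, *Ltbp1*, *Ltbp4*, *Fstl3*, *Tgfbr2*, *Tgfbr3*, *Smad3*, *Smad6*, *Skil*, *Id2* and *Id3* among the higher, and *Tgfb2*, *Inhba*, *Grem1* and *Id4* among the lower. The other 16 were not called in at least 1 alternative, 13 of them with a library left out, and among the 50 genes no call reversed its direction.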

How the data were processed

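For all 6 libraries the authors deposited normalized signal values, named FPKM in 1 table. These turned out to be reads over a library's size factor, and whole reads were recovered for 100% of values (tolerance 0.02 reads). The submitters' processing notes name mm10; aligner, counter, annotation and strand are not given in the sources used here. Limma 3.58.1 (R 4.3.3, variance trend, Benjamini-Hochberg) was fitted to log2(value + 1) of all 24016 genes, and a change was called at an adjusted p under 0.05. The pseudocount of 1 is about 1 read. The scripts were tested on simulated data. Alternatives, including edgeR 4.0.16 and DESeq2 1.42.0 (the study's tool) on recovered reads, are given below. The members and lists were chosen with earlier results of these data known. Further pathway genes were named if past the threshold, with 10 more by adjusted p; the single-gene result of 1 of them is not reported here, while the counts include it. Symbols, exons and overlaps came from GENCODE on GRCm38, promoters from RefSeq; 8 identifiers had no symbol. Libraries of a treatment differed by more than sampling noise (chi-square per degree of freedom of 2.75 or more).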

Additional observations from a re-analysis of the deposited data

How the results depend on the processing

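The counts of the report, 18 pathway genes higher and 13 lower, were recomputed under 21 alternatives, among them other pseudocounts (0.1 and 5), filters on the mean, scalings, edgeR, DESeq2, thinned reads and leaving out each library in turn. Without a variance trend in limma, 11 were higher and 6 lower, and of the further pathway genes 7 were higher and 9 lower (16 and 24 in the report). With the replicate number as a block, the limma fit called 18 higher and 14 lower; with this replicate block edgeR called 18 and 13 and DESeq2 15 and 11. The correlations of same-numbered libraries were -0.02, 0.01 and 0.02 over 13880 genes. No shared deviation was detected, but a small one could be missed, so these values cannot show whether the numbers pair the cultures. Leaving out 1 library gave 13 to 16 higher and 5 to 11 lower genes, 0 to 2 lower past the threshold, and 9 to 12 higher and 16 to 18 lower further genes. Only 1 gene was lower past the threshold (2 in the report) with a mean of at least 10, in edgeR and in edgeR with the replicate block, as *Nog* was then not tested. The cause of the other shifts was not tested. Of the 50 pathway genes, 32 kept their side of the threshold in the alternatives that gave a value and 18 did not. No scaling moved the median of genes with a mean of at least 10 by over 0.1 on the log2 scale. *Bmp3*, *Bmp6*, *Gdf10*, *Inhbb*, *Nog* and *Acvr2b*, with a mean under 10, are limited by depth.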
